A study of Mus musculus with 6 samples.

Results

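Cathepsins are proteases that work mainly inside lysosomes, the acidic compartments in which cells break down proteins taken up from outside or delivered from within. The 10 genes described here are Ctsl, Ctsb, Ctsd, Ctsa, Ctsc, Ctsh, Ctss, Ctsz, Ctsf and Ctso, found by symbol among 38561 gene identifiers in the count tables. Ctsk, the cathepsin of bone-resorbing osteoclasts, was kept apart. The set was partly chosen by its counts in these libraries, since Ctsl had been noticed as higher in soft tissue sarcoma, so its values in comparisons with that tumour are given as a description, with no test.

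RNA was measured in 3 groups of 2 libraries, and all 3 came from mice of 1 strain, NG2-Cre;p53flox/flox on a mixed background. In these mice a Cre recombinase under control of the NG2 gene, Cspg4, removes the floxed part of Trp53, which encodes the tumour suppressor p53. The comparison cells thus came from the same strain as the tumours. Whether the floxed part was gone in the sorted cells or in the tumours was not measured here. The first group was normal cells that an antibody to NG2, a surface proteoglycan of pericytes, had sorted from skeletal muscle. The other groups were primary tumours: osteosarcomas of the right tibia (replicate 1) and of the spine at lumbar level (replicate 2), and 2 soft tissue sarcomas that lay under the skin. The tumours were whole pieces of tissue, which hold stroma and blood cells beside tumour cells. Nothing in the labels says how many animals gave the libraries or what their age was, so p-values here cover only the spread of these libraries, which may be partly technical.

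Most cathepsins are cysteine proteases of the papain family, Ctsd is an aspartic protease and Ctsa is a serine carboxypeptidase. They are made as inactive precursors, tagged with mannose 6-phosphate, carried to lysosomes by mannose 6-phosphate receptors and activated there at low pH. Macrophages, dendritic cells and B cells hold large amounts of several of them, and some tumour and stromal cells secrete them into the matrix. Transcription factors of the TFEB, TFE3 and MITF family bind lysosomal genes at sites built around the letters CACGTG.

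Reads on genes numbered between 27693585 and 58126832 per library, and each cathepsin had between 659 and 213427 counts in each library. All 10 genes were among the 19024 genes that passed the filter on low counts. Levels are given as CPM, the counts of a gene scaled to a common library size with TMM factors, and a gene is said to have risen or fallen only where edgeR's quasi-likelihood test gave an adjusted p under 0.05 over all 19024 genes. The log2 values of the 2 libraries of a group correlated over genes with r between 0.899 and 0.951. Trp53 stood at 101 and 82.3 CPM in the NG2 sorted cells and between 24.3 and 32.6 CPM in the tumours, and it fell in both tumour types (adjusted p 0.0172 and 0.0199). Since counts over the whole gene do not show whether the floxed part is gone, this checks the labels only in part. Cspg4 stood at 38.6 and 30.6 CPM in the sorted cells and between 37.7 and 188 CPM in the tumours, so the sort gene was not higher in the sorted cells.

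Markers of other cell types differed between libraries and groups. The summed level of 8 B cell markers was 5503 and 1825 CPM in the sorted cells against 3.0 to 14.4 CPM in the 4 tumours, with 0 to 3 of the 8 at 0 in a tumour library. The 8 dendritic cell markers summed to 3871 and 1780 CPM in the sorted cells and to between 22.4 and 38.2 CPM in the tumours. Most of the sum in the sorted cells was Ccr7, at 3654 and 1522 CPM. Of the 8 markers, 4 fell in osteosarcoma and 5 in soft tissue sarcoma, and the others were not called. Granulocyte markers summed to 3645 CPM in replicate 2 of the sorted cells and to 78.4 CPM in replicate 1. Osteoclast markers summed to 21479 CPM in replicate 2 of osteosarcoma and to 1042 CPM in replicate 1. Macrophage markers, 15 genes, summed to 6035 and 5069 CPM in the soft tissue sarcomas, against 2367 and 2081 CPM in the osteosarcomas and 1022 and 2707 CPM in the sorted cells. Their part in the cathepsin results was not tested. In bulk samples, fewer cells of a type and less RNA per cell cannot be told apart. The RNA Xist, made by the inactive X chromosome, was at 347 and 488 CPM in the sorted cells. It was at 54.2 and 204 CPM in the osteosarcoma libraries but only at 0.0839 and 0.135 CPM in those of soft tissue sarcoma. Ddx3y, a gene of the Y chromosome, was at 0 in both sorted libraries, at 14.8 and 0.0356 CPM in osteosarcoma replicates 1 and 2, and at 76.7 and 43.1 CPM in soft tissue sarcoma. Sex and group thus cannot be told apart in soft tissue sarcoma against the sorted cells, and the osteosarcoma replicates differed in these genes.

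**Figure D1:**
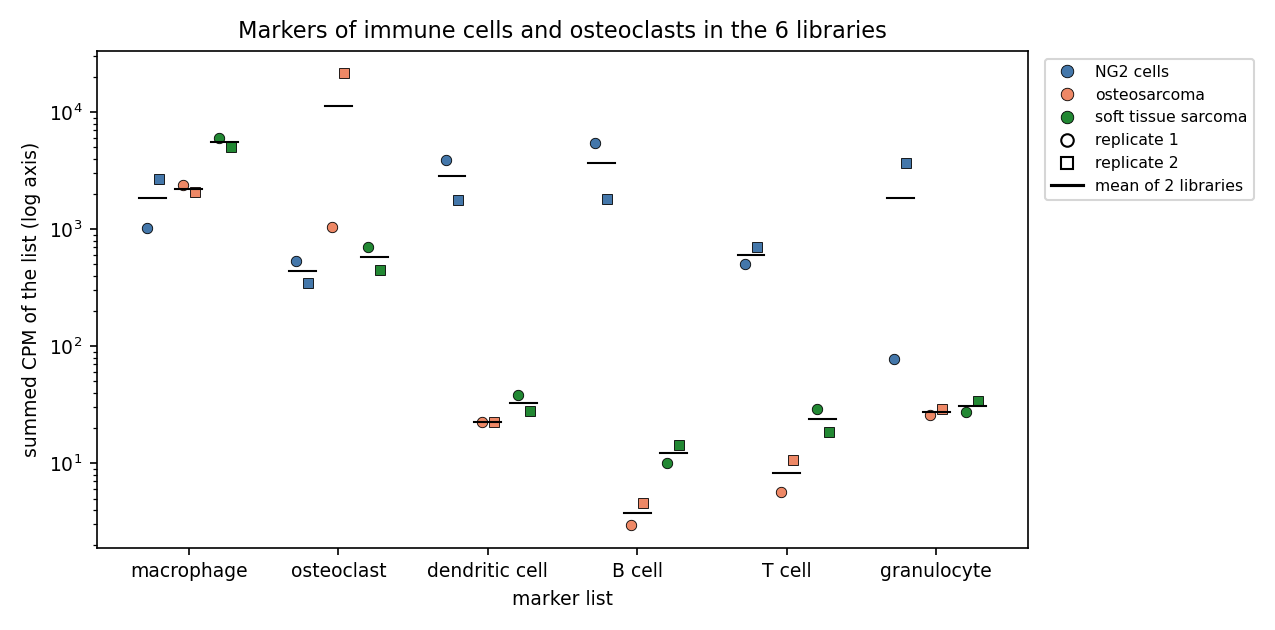
Summed CPM of marker genes of 6 cell types (log axis), 1 symbol per library, circles for replicate 1 and squares for replicate 2, with a line at the mean of 2 libraries. The B cell, T cell and dendritic cell sums lie far higher in the NG2 sorted cells than in any tumour. Most of the dendritic cell sum in the sorted cells is Ccr7. The macrophage sum is highest in soft tissue sarcoma, and osteosarcoma replicate 2 stands apart for osteoclast markers at 21479 CPM.

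Stretches around the CACGTG letters were read from the RefSeq start windows of the cathepsin genes on GRCm38.p6 (250 bases before a start and 50 after it), because the known lysosomal transcription factors recognise these letters. Windows were on hand for 8 of the 10 genes, 9 windows in all since Ctsa had 2. Of the 9 windows, 4 held at least 1 CACGTG, the same letters on both strands, against 7.15% of 32851 windows over all genes. The stretches below run 5′ to 3′ on the strand of the gene, at most 30 bases each, with the CACGTG letters in capitals.
Ctsl (chr13:64370739-64370768, minus strand): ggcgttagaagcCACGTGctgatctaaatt
Ctsd, upstream (chr7:142388055-142388077, minus strand): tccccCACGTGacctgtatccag
Ctsd, downstream (chr7:142387908-142387937, minus strand): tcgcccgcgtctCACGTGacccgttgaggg
Ctsa (chr2:164833758-164833786, plus strand): tgtCACGTGatgcagatgctCACGTGacc
Ctsf (chr19:4855074-4855103, plus strand): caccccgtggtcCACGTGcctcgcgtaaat

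Set on the GENCODE M21 transcripts, the place of a stretch depends on the transcript. The Ctsl letters begin 450 bases before the start of transcript Ctsl-201 and 3 bases before that of Ctsl-203, whose untranslated first bases they run into, and lie in an intron of Ctsl-205. Both Ctsd matches lie before the start of Ctsd-201, by 215 and 68 bases. Against the protein-coding Ctsd-202, the first begins 34 bases before the start and the second 113 bases after it, in an untranslated exon. The Ctsa pair begins 860 bases after the start of Ctsa-201, in an exon annotated as untranslated, and 54 bases before the start of Ctsa-210, which is also annotated as protein-coding. The Ctsf letters begin 44 bases before the start of Ctsf-201. The longer form TCACGTG was found, on either strand, in the windows of Ctsd and Ctsa and in 3.77% of all windows, and each such match overlaps a CACGTG. These are matches of letters, not sites of measured binding. All 4 genes had their lowest mean RNA level in the sorted cells. So had Ctsz, whose window held no CACGTG, and Ctsb, for which no window was on hand. Of the 4, only Ctsa was called against the sorted cells, with Ctsl not tested in soft tissue sarcoma. The highest mean was in soft tissue sarcoma for Ctsl, Ctsd and Ctsf and in osteosarcoma for Ctsa. For Ctsd, Ctsf and Ctsa the libraries of the tumour types overlapped.

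Ctsl encodes cathepsin L, a cysteine endopeptidase that cuts proteins internally and also processes other proteases. Its level was 78.3 and 107 CPM in the NG2 sorted cells, 139.0 and 139.1 CPM in the osteosarcomas, and 1221 and 1429 CPM in the soft tissue sarcomas. Both soft tissue sarcomas were thus far higher than the other 4 libraries, and the lowest of them was 8.78 times the highest osteosarcoma and 11.4 times the highest sorted library. As a description of the gene that was chosen for this difference, the log2 fold change was 3.84 against the sorted cells (14.3-fold) and 3.25 against osteosarcoma (9.53-fold). Ordered by log2 fold change, Ctsl lay above 93.8% of all tested genes in the first of these comparisons and above 94.9% in the second, so 1179 and 962 genes had larger values. Between osteosarcoma and the sorted cells, which did not enter its choice, Ctsl differed by a log2 fold change of 0.58 ± 0.28 (SE, n = 2 per group, adjusted p 0.173 by edgeR), with a 95% interval from -0.09 to 1.26. The libraries of those groups did not overlap, but the difference did not pass the test.

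**Figure D2:**
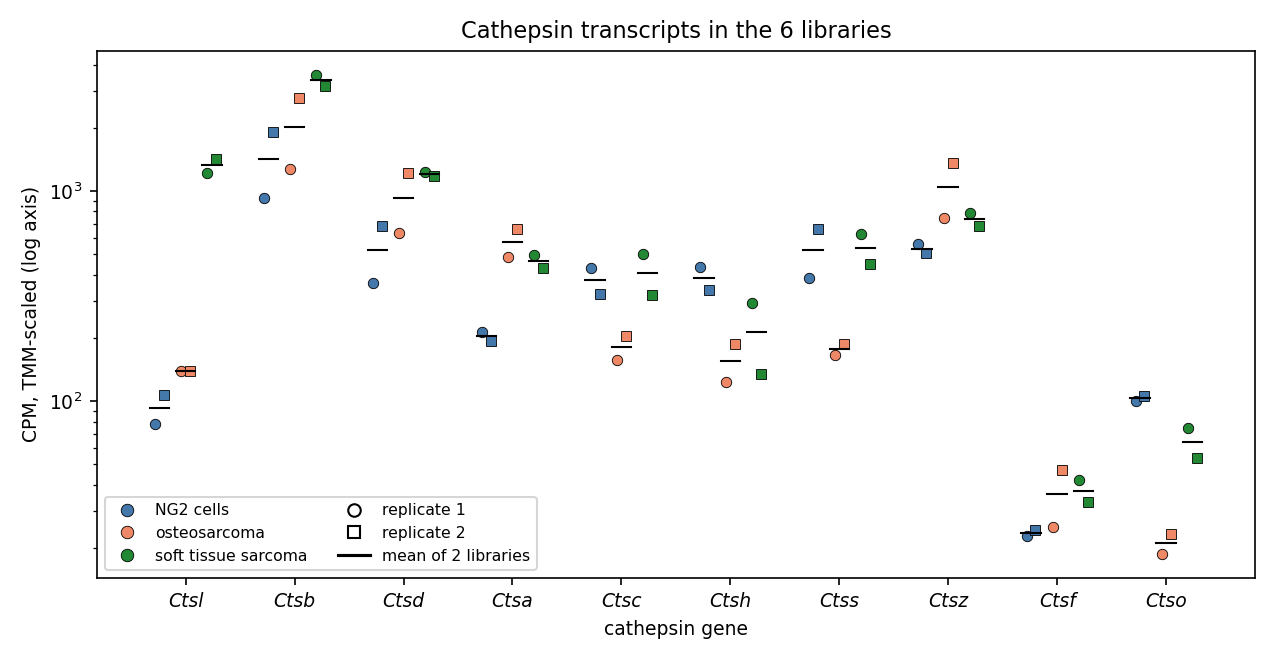
TMM-scaled CPM of the 10 cathepsin genes in the 6 libraries (log axis), with circles for replicate 1, squares for replicate 2 and a line at the mean of 2 libraries. Ctsl stands at 1221 and 1429 CPM in soft tissue sarcoma and between 78.3 and 139.1 CPM elsewhere, while Ctso is lowest in osteosarcoma at 18.8 and 23.4 CPM.

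In osteosarcoma against the NG2 sorted cells, the cathepsins went both ways: Ctsa rose, and Ctss and Ctso fell. The other 7 of the 10 did not pass the test, so 3 of 10 were called, where 21.5% of all tested genes were called in this comparison (10.5% higher and 11% lower). The libraries did not overlap for 8 of the 10 genes, 4 higher and 4 lower, and 65.1% of all tested genes likewise did not overlap (32.7% higher and 32.4% lower). The median log2 fold change of the 10 was 0.55, beside 0.04 over all tested genes. At an unadjusted p under 0.05 by edgeR, 2 were higher and 4 were lower. Over all genes, 6134 of 17971 reached this threshold, in either direction, in an edgeR model of the 2 compared groups only. That share was not counted in the model of all 6 libraries.

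Ctso encodes cathepsin O, a cysteine protease whose substrates are poorly known. It stood at 100.3 and 106 CPM in the sorted cells, 18.8 and 23.4 CPM in the osteosarcomas, and 74.4 and 53.6 CPM in the soft tissue sarcomas. Every osteosarcoma library lay below every other library. Against the sorted cells, osteosarcoma held 4.89-fold less Ctso: the log2 fold change was -2.29 ± 0.30 (SE, adjusted p 0.00903 by edgeR). This call held in all 14 alternative analyses.

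Ctss encodes cathepsin S, an endopeptidase of antigen-presenting cells that stays active at neutral pH and degrades the invariant chain of MHC class II molecules. Its level was 385 and 660.4 CPM in the sorted cells, 166 and 187 CPM in the osteosarcomas, and 622 and 449.7 CPM in the soft tissue sarcomas. Both osteosarcomas lay below the other 4 libraries, and the soft tissue sarcomas overlapped the sorted cells. Against the sorted cells, Ctss was 2.96-fold lower in osteosarcoma, a log2 fold change of -1.57 ± 0.36 (SE, adjusted p 0.0325 by edgeR). That call was lost in 7 of the 14 alternatives, among them the fits without replicate 2 of the sorted cells and without any 1 tumour library. In those fits fewer of all genes were called too. Leaving out 1 library at a time, the log2 fold change ran from -1.91 to -1.12.

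The MHC class II genes, whose products work with Ctss in antigen presentation, fell in both tumour types. Of 10 listed genes, 9 fell in osteosarcoma and 9 fell in soft tissue sarcoma against the sorted cells, with median log2 fold changes of -6.17 and -4.07. Cd74, the invariant chain itself, went from a mean of 3976 CPM in the sorted cells to 27.3 CPM in osteosarcoma (log2 fold change -7.19, adjusted p 0.0048) and 186 CPM in soft tissue sarcoma (log2 fold change -4.42, adjusted p 0.0098). B cell markers moved with this list: all 8 fell in both tumour types, Cd79a, part of the B cell receptor, among them. In soft tissue sarcoma Ctss did not follow Cd74: its log2 fold change against the sorted cells was 0.04 ± 0.35 (SE, adjusted p 0.954), with a 95% interval from -0.82 to 0.89.

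Ctsa encodes cathepsin A, a carboxypeptidase that also protects the lysosomal enzymes Neu1 and Glb1 in a shared complex. Its level was 214 and 193 CPM in the sorted cells, 483 and 663 CPM in the osteosarcomas, and 496 and 433 CPM in the soft tissue sarcomas. All 4 tumour libraries lay above both sorted libraries, and the tumour types overlapped. Ctsa rose 2.82-fold in osteosarcoma (log2 fold change 1.49 ± 0.28, SE, adjusted p 0.0200 by edgeR) and 2.28-fold in soft tissue sarcoma (1.19 ± 0.28, adjusted p 0.0364). Both comparisons share the sorted cells. Each call was lost in 5 of 14 alternatives, among them the fits without replicate 1 or 2 of the sorted cells and without replicate 1 or 2 of soft tissue sarcoma. In those fits fewer of all genes were called too, and why the Ctsa calls were lost was not tested. The other loss came in a model of the 2 compared groups only for osteosarcoma, and with a replicate block for soft tissue sarcoma. Leaving out 1 library at a time, the log2 fold change ran from 1.26 to 1.70 in osteosarcoma and from 1.11 to 1.31 in soft tissue sarcoma.

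The partners of Ctsa did not pass the test in either tumour type. Neu1, a sialidase, stood between 41.2 and 103 CPM across the 6 libraries, and Glb1, a beta-galactosidase, at 10.2 and 14.2 CPM in the sorted cells and between 24.8 and 75.8 CPM in the tumours. The Glb1 log2 fold change was 2.04 in osteosarcoma (adjusted p 0.0540) and 1.39 in soft tissue sarcoma (adjusted p 0.1326). Ctsa shares 10.5% of its exon bases with Pltp and 6.87% with Neurl2 on the opposite strand, and the strand setting of the counting was not given in the sources used here, so reads there cannot be assigned with certainty.

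Ctsb is a cysteine protease that cuts both inside proteins and at their carboxyl end. It stood at 932 and 1903 CPM in the sorted cells, 1267 and 2773 CPM in the osteosarcomas, and 3581 and 3178 CPM in the soft tissue sarcomas. The soft tissue sarcomas were above the other 4 libraries, but the sorted cells and osteosarcomas overlapped and their replicates differed 2.04-fold and 2.19-fold. The log2 fold change of soft tissue sarcoma against the sorted cells was 1.25 ± 0.51 (SE, adjusted p 0.131), and that of osteosarcoma was 0.51 ± 0.50 (SE, adjusted p 0.490), which turned to -0.15 without osteosarcoma replicate 2. Ctsb shares 12.8% of its exon bases with Fdft1 on the other strand, a gene with at most 3415 counts in a library.

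Ctsd, the main aspartic protease of lysosomes, lay at 365 and 682 CPM in the sorted cells, 628 and 1222 CPM in the osteosarcomas, and 1235 and 1185 CPM in the soft tissue sarcomas. Its replicates were unequal in the same groups as those of Ctsb. The difference of soft tissue sarcoma from the sorted cells was 1.21 ± 0.45 on the log2 scale (SE, adjusted p 0.108). In osteosarcoma it was 0.82 ± 0.45 (SE, adjusted p 0.225), with overlapping libraries.

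Ctsz encodes cathepsin Z, also called cathepsin X, a carboxypeptidase. Its level was 558 and 505 CPM in the sorted cells, 742 and 1356 CPM in the osteosarcomas, and 786 and 679 CPM in the soft tissue sarcomas. All 4 tumours lay above the sorted cells, with log2 fold changes of 0.98 ± 0.35 in osteosarcoma (SE, adjusted p 0.0957) and 0.46 ± 0.35 in soft tissue sarcoma (SE, adjusted p 0.376). Without osteosarcoma replicate 1 the first of these passed the test (adjusted p 0.0305), in a fit where osteosarcoma was replicate 2 alone, the library with the high osteoclast markers, and was assumed to vary like the other groups.

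Ctsc and Ctsh are exopeptidases that trim the amino end of proteins, and Ctsc activates the granule serine proteases of neutrophils, mast cells and cytotoxic lymphocytes. Ctsc was at 433 and 323 CPM in the sorted cells, 157 and 205 CPM in the osteosarcomas, and 499 and 319 CPM in the soft tissue sarcomas. Ctsh was at 434 and 338 CPM in the sorted cells, 123 and 187 CPM in the osteosarcomas, and 294 and 135 CPM in the soft tissue sarcomas. For both genes the osteosarcomas lay below the sorted cells without overlap, and neither passed the test there (Ctsc -1.06 ± 0.34, adjusted p 0.0728, and Ctsh -1.32 ± 0.45, adjusted p 0.0842, log2 with SE). DESeq2 called both lower (adjusted p 0.0192 and 0.0254), where it called 6966 of all genes in either direction. In soft tissue sarcoma the replicates of Ctsh differed 2.18-fold and those of Ctsc 1.56-fold, more than the difference of Ctsc from the sorted cells.

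The genes of the proteases that Ctsc activates had their highest summed level in the sorted cells. The 9 listed genes summed to 299 and 1236 CPM in the sorted cells, 1.65 and 15.04 CPM in the osteosarcomas, and 102 and 14.7 CPM in the soft tissue sarcomas. Of the 9, Elane, the neutrophil elastase and also a gene of the granulocyte list, fell in both tumour types (adjusted p 0.0305 and 0.0366), and it stood at 373 CPM in replicate 2 of the sorted cells against 8.81 CPM in replicate 1. The other 8 did not pass the test.

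Ctsf, a cysteine endopeptidase, stood at 22.8 and 24.3 CPM in the sorted cells, and at 25.2 and 47.0 CPM in the osteosarcomas and 42.0 and 33.1 CPM in the soft tissue sarcomas. All 4 tumour libraries lay above the sorted cells by small amounts. The log2 fold changes were 0.62 ± 0.38 in osteosarcoma (SE, adjusted p 0.283) and 0.67 ± 0.38 in soft tissue sarcoma (SE, adjusted p 0.252).

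In soft tissue sarcoma against the sorted cells, of the 9 cathepsins other than Ctsl, 1 rose (Ctsa) and none fell, where 19.3% of all tested genes were called (9.89% higher and 9.4% lower). The libraries of 7 of the 9 did not overlap, 5 higher and 2 lower, beside 70.4% of all tested genes (35.8% higher and 34.6% lower). At an unadjusted p under 0.05 by edgeR, 3 were higher. Over all genes, 7860 of 18116 reached this threshold, in either direction, in an edgeR model of the 2 compared groups only. The share in the model of all 6 libraries, which gave the cathepsin count, was not counted. The median of the 9 was 0.46, beside 0.00 over all tested genes. The log2 fold changes of the 9 ran from -0.85 for Ctsh to 1.25 for Ctsb.

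**Figure D3:**
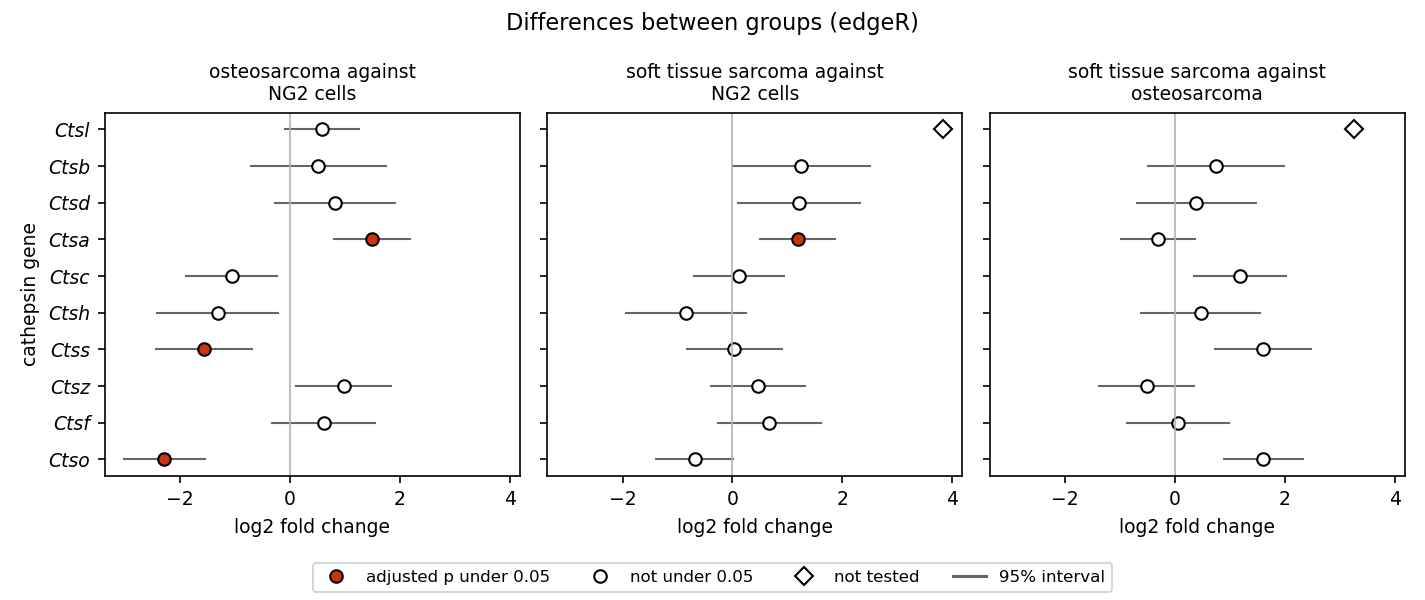
Log2 fold change of each cathepsin in the 3 comparisons by edgeR, with 95% intervals as lines. Filled symbols mark an adjusted p under 0.05 over all 19024 genes, which are Ctsa, Ctss and Ctso in osteosarcoma against NG2 cells and Ctsa in soft tissue sarcoma against NG2 cells, and diamonds mark Ctsl where it was not tested.

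Between soft tissue sarcoma and osteosarcoma, edgeR called none of the 9 cathepsins other than Ctsl, and it called 0.142% of all tested genes, 27 in number (0.0841% higher and 0.0578% lower). At an unadjusted p under 0.05 by edgeR, 3 of the 9 were higher in soft tissue sarcoma. Over all genes, 3073 of 17382 reached this threshold, in either direction, in an edgeR model of the 2 compared groups only. The share in the model of all 6 libraries, which gave the cathepsin count, was not counted. DESeq2 called 3 of the 9 at an adjusted p under 0.05, and 1925 of all genes. The 3 cathepsins were Ctso (log2 fold change 1.60 ± 0.29, SE, adjusted p 0.0984 by edgeR and 8.1e-05 by DESeq2), Ctss (1.60 ± 0.36, adjusted p 0.135 and 0.00245) and Ctsc (1.18 ± 0.34, adjusted p 0.195 and 0.0327). Their 95% intervals by edgeR ran from 0.88 to 2.32, from 0.72 to 2.48 and from 0.34 to 2.01. Libraries of 4 of the 9 did not overlap, these 3 and Ctsb, all higher in soft tissue sarcoma, beside 50.3% of all tested genes (25.8% higher and 24.5% lower). For Ctsf the difference was 0.06, with an interval from -0.88 to 0.99.

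The replicates of 1 group differed in the same direction for most cathepsins in both tumour types. In osteosarcoma, replicate 2 was higher for 10 of 10 genes, by ratios from 1.00 for Ctsl to 2.19 for Ctsb, while 48.6% of all tested genes were higher in that library. It is the library with 21479 CPM of osteoclast markers, and Ctsk stood at 6020 CPM in it against 276 CPM in replicate 1. Among the soft tissue sarcomas, replicate 1 was higher for 9 of 10 genes, with Ctsl the exception, while 51.3% of all tested genes were higher in it. The part of the osteoclast markers in these values was not tested.

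Per length, the make-up of the cathepsin transcripts differed between groups. CPM was divided by the length in kilobases of the principal transcript in GENCODE M21, which allows levels of different genes to be compared. In the sorted cells the highest were Ctss at 386 ± 144 and Ctsz at 369 ± 25.6 CPM per kilobase (SD, n = 2), followed by Ctsb, Ctsd and Ctsh, and each of these overlapped the next in order. Ctsl ranked 8 of 10 at 47.1 ± 10.4, above Ctso and Ctsf. In osteosarcoma Ctsz led at 728 ± 302, overlapping Ctsd at 435 ± 197, which overlapped Ctsb at 426 ± 224. Next came Ctsa, Ctss, Ctsh, Ctsc and Ctsl at 157, 130.3, 95.9, 72.7 and 70.5, with Ctsf at 18.2 and Ctso at 6.08 CPM per kilobase. In soft tissue sarcoma the order was Ctsb at 713 ± 60.0, Ctsl at 672 ± 74.5, Ctsd at 569 ± 16.7, Ctsz at 508 ± 52.4 and Ctss at 395 ± 89.9. Of these 5 neighbours, Ctsb and Ctsl overlapped and the others did not.

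As a share of the summed per-length level of the 10 genes, Ctsl made up 2.45% and 2.66% of the sorted libraries, 4.52% and 2.59% of the osteosarcomas, and 17.6% and 23.2% of the soft tissue sarcomas. Ctsz made up 33.0% and 34.6% in osteosarcoma and between 15.1% and 23.9% in the other libraries. Ctss made up 17.6% and 23.8% in the sorted cells and 7.85% and 5.08% in osteosarcoma. The place of Ctsl depends on its length: the principal transcript has 1971 bases, while all its annotated exons cover 6489 bases. With the latter length Ctsl ranked 5 of 10 in soft tissue sarcoma, at 204 CPM per kilobase, after Ctsb, Ctsd, Ctsz and Ctss. Fold changes between groups do not use the length.

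**Figure D4:**
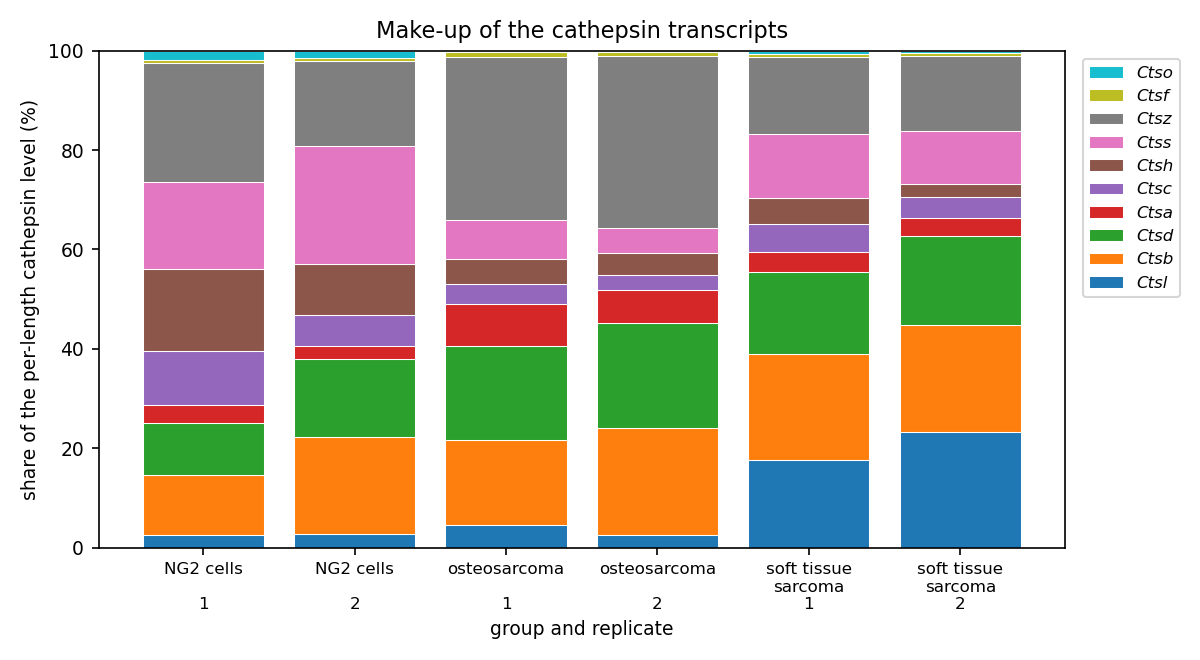
Share of each cathepsin in the summed per-length level (CPM per kilobase of the principal transcript) of the 10 genes, 1 bar per library, in percent. The Ctsl share is 17.6% and 23.2% in the soft tissue sarcomas and at most 4.52% elsewhere, and the Ctsz share is 33.0% and 34.6% in the osteosarcomas.

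All 10 cathepsins together summed to 3520 and 4842 CPM in the sorted cells, 3750 and 6804 CPM in the osteosarcomas, and 8851 and 7895 CPM in the soft tissue sarcomas. That was between 0.322% and 0.908% of the counts on genes, with Wilson 95% intervals at most 0.00682 percentage points wide, which cover counting error only. Without Ctsl the means were 4089 ± 914, 5138 ± 2159 and 7048 ± 823 CPM (SD, n = 2). The sum is given as a description, with no test.

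Few of the cathepsins outside the 10 were detected. Of 13 such genes, among them the placental cathepsins, 4 were tested, and 9 or 10 were at 0 in each library. Ctsk rose in osteosarcoma (log2 fold change 9.42, adjusted p 0.0167) and in soft tissue sarcoma (5.30, adjusted p 0.0455), from 4.35 and 4.86 CPM in the sorted cells to 276 and 6020 CPM and to 189 and 173 CPM. Ctsw, a cathepsin of cytotoxic lymphocytes, fell in osteosarcoma from a mean of 30.3 to 1.66 CPM (adjusted p 0.0158). Ctsl, at 139.0 and 139.1 CPM, was nearly equal in the osteosarcoma libraries between which Ctsk differed.

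The genes whose levels over the 6 libraries were most like those of Ctsl were Rgs16, Clec4n and Eml1, out of 7769 genes compared. Their root mean square differences from Ctsl in centred log2 CPM were 0.398, 0.414 and 0.418. Rgs16, a regulator of G protein signalling, stood at 19.2 and 29.96 CPM in the sorted cells, 21.1 and 17.8 CPM in the osteosarcomas, and 196 and 233 CPM in the soft tissue sarcomas. Clec4n encodes dectin-2, a lectin receptor of macrophages and dendritic cells, and ran from 9.59 and 14.97 CPM in the sorted cells to 123 and 109 CPM in the soft tissue sarcomas. The nearest to Ctsl among the other 9 cathepsins, Ctsb, differed by 1.22. The distances from Ctsl rest on the soft tissue sarcoma values for which it was chosen. A set of 9 genes also offers fewer near matches than 7769, so these distances are a description only. Nearest to Ctss were Ubash3b, Evi2a and Hpcal1, at 0.220, 0.230 and 0.232. Among the cathepsins themselves, Ctsb and Ctsd were most alike, with a difference of 0.181, and Ctsz and Ctsf came next at 0.249.

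The enzymes that share the lysosome with the cathepsins were described from 6 lists of 109 genes, of which 107 were tested. In osteosarcoma against the sorted cells 12 rose and 6 fell, and in soft tissue sarcoma 12 rose and 6 fell, 16.8% in each comparison beside 21.5% and 19.3% of all tested genes. None was called between the tumours by edgeR. The share of the listed genes called was thus near that of all tested genes, slightly below it in both comparisons, and the difference was not tested.

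Among 6 other lysosomal peptidases, Lgmn rose in soft tissue sarcoma. Lgmn encodes legumain, an asparaginyl endopeptidase known to process the precursors of several cathepsins, Ctsl among them. It stood at 154 and 183 CPM in the sorted cells, 441 and 204 CPM in the osteosarcomas, and 967 and 973 CPM in the soft tissue sarcomas (log2 fold change 2.53 ± 0.42 against the sorted cells, SE, adjusted p 0.0166). Both soft tissue sarcomas were above all other libraries, as for Ctsl, though against osteosarcoma the difference was not called (1.59, adjusted p 0.165). Prcp, a prolyl carboxypeptidase, fell in both tumour types (3.07-fold, adjusted p 0.0198, and 3.05-fold, adjusted p 0.0220), and Cpq rose in osteosarcoma (2.64-fold, adjusted p 0.0474).

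Of 30 lysosomal glycosidases, sulfatases and lipases, 5 rose and 2 fell in osteosarcoma, and 3 rose and 1 fell in soft tissue sarcoma. Naglu, which degrades heparan sulfate, rose 8.27-fold in osteosarcoma (adjusted p 0.0108), and the phospholipase Pla2g15 rose 7.92-fold in soft tissue sarcoma (adjusted p 0.00865). Gla, the alpha-galactosidase, fell in both, from a mean of 143 to 20.9 and 21.7 CPM (adjusted p 0.00794 and 0.0106). Of 18 membrane and activator proteins, 3 rose in osteosarcoma, and 3 rose and 1 fell in soft tissue sarcoma. Lamp1, a main protein of the lysosomal membrane, rose in both (log2 fold changes 1.90 and 1.85, adjusted p 0.0160 and 0.0184), as did the tetraspanin Cd63 (3.60 and 3.13, adjusted p 0.00808 and 0.0122). Lamp2 and Psap, the saposin precursor, did not pass the test.

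Of 22 tested subunits of the V-ATPase, the pump that acidifies lysosomes, 1 rose in osteosarcoma and 1 fell in soft tissue sarcoma. The subunit that rose was Atp6v0d2, which is enriched in osteoclasts and is in the osteoclast list as well. Osteosarcoma replicate 2 held 7522 CPM of these subunits against 2352 CPM in replicate 1 and between 2439 and 2828 CPM in the other 4 libraries.

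For the receptors and adaptors that deliver cathepsins, 18 genes, 2 rose and 2 fell in osteosarcoma, and 4 rose and 1 fell in soft tissue sarcoma. Igf2r, the large mannose 6-phosphate receptor, rose in soft tissue sarcoma, from 59.8 and 58.0 CPM in the sorted cells to 208 and 217 CPM (log2 fold change 1.85 ± 0.39, SE, adjusted p 0.0279), with 47.1 and 97.7 CPM in the osteosarcomas. M6pr, the small receptor, stood between 189 and 470 CPM and did not pass the test. Ap1s1, a subunit of the AP-1 adaptor, rose in both tumour types (8.06-fold and 9.70-fold, adjusted p 0.00706 and 0.00863). Sorl1, a sorting receptor, fell in both, from 560 and 296 CPM to at most 20.7 CPM (adjusted p 0.00552 and 0.0108).

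Of 13 regulators of lysosomal genes, Tfe3 rose in soft tissue sarcoma, from a mean of 28.2 to 66.7 CPM (log2 fold change 1.24, adjusted p 0.0479). Fnip1, which acts with folliculin upstream of TFE3, fell in both tumour types (2.58-fold and 3.40-fold, adjusted p 0.0224 and 0.0145). Tfeb and Mitf did not pass the test, at 3.1 to 9.46 CPM and 7.73 to 35.1 CPM.

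Among inhibitors of cathepsins, Cst3 encodes cystatin C, a secreted inhibitor at 691 to 1324 CPM in the 6 libraries, which did not pass the test. Cstb, the intracellular cystatin B, stood at 91.7 and 111 CPM in the sorted cells and between 170 and 623 CPM in the tumours (adjusted p 0.0640 and 0.1048). Of the 7 inhibitors tested of 10 listed, Serpinb1a fell in both tumour types (adjusted p 0.0114 and 0.0198), and Serpinb6a and Cst6 rose in soft tissue sarcoma (adjusted p 0.0275 and 0.0497).

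**Figure D5:**
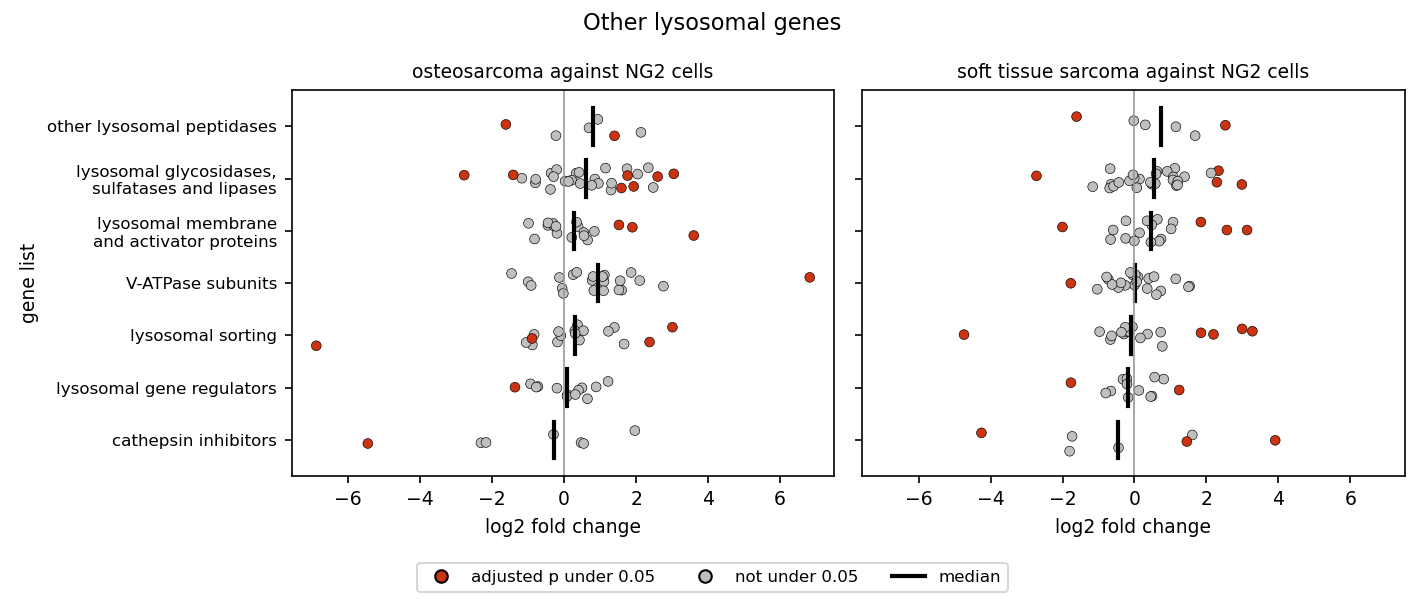
Log2 fold changes of tested genes in 7 lists of lysosomal genes and cathepsin inhibitors, 1 point per gene, in both comparisons with the NG2 cells, with a line at each list's median and filled red points for an adjusted p under 0.05. Points of most lists lie on both sides of 0, and the V-ATPase median is 0.95 in osteosarcoma and 0.01 in soft tissue sarcoma.

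A list of 15 macrophage genes was set beside the cathepsins. Against the sorted cells, 5 of 15 rose in soft tissue sarcoma and none fell, with a median log2 fold change of 2.17, and in osteosarcoma 4 rose and 1, Cd14, fell, with a median of 0.75. Csf1r, the receptor that macrophages need, stood at 60.8 and 79.1 CPM in the sorted cells, 158 and 380 CPM in the osteosarcomas, and 368 and 359 CPM in the soft tissue sarcomas, and rose in both (adjusted p 0.0343 and 0.0234). C1qa, a complement gene of tissue macrophages, stood at 20.2 and 21.5 CPM, 145 and 63.7 CPM, and 388 and 285 CPM in the same order. Cd68, a macrophage lysosomal protein, was highest in osteosarcoma replicate 2 at 979 CPM and did not pass the test. The soft tissue sarcomas, where Ctsl was highest, also held the highest macrophage sums, 6035 and 5069 CPM against 2367 and 2081 CPM in the osteosarcomas. Between the tumour types the median log2 fold change of the 15 genes was 1.79, and none was called. The part of macrophages in the Ctsl level was not tested.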

How the data were processed

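Polyadenylated RNA was amplified as full-length cDNA by template switching and PCR and sequenced as paired ends, per the labels' protocols. The authors deposited 1 table per library of whole-number read counts per Ensembl gene, with no normalization. The submitters' processing notes name STAR, HTSeq, Trim Galore, cutadapt, FastQC and DESeq2 and the build GRCm38 (mm10), and the strand setting is not given in the sources used here. In each deposited table, 5 counters of unassigned reads were left out. Reads on no gene made up 33.2% of each sorted library and 19.5% to 23.4% of the tumour libraries. Of 38561 identifiers, 36723 had a symbol in GENCODE M21.

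Genes were kept by filterByExpr (minimum count 10, total 15), which left 19024. All 6 libraries entered 1 edgeR 4.0.16 quasi-likelihood model (R 4.3.3, TMM scaling, 3 residual degrees of freedom), with Benjamini-Hochberg adjustment over all tested genes and a threshold of 0.05. It was tested on simulated data. CPM per kilobase used the RefSeq-linked principal transcript. Alternatives were other scalings, no filter, DESeq2 1.42.0, limma-voom (limma 3.58.1), a model of the compared groups, a replicate block, leaving out 256 immunoglobulin genes, and leaving out each library. The groups were sequenced in separate lanes, going by the names of the deposited tables, so lane and group cannot be told apart.

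The cathepsins and gene lists were chosen with earlier results of these data known. Named genes were the 10 cathepsins, a fixed set of genes, up to 2 called genes of each list and comparison with the largest change (mean of at least 20 CPM in the group with the higher level), and the 3 nearest genes to Ctsl and Ctss (prior count 1). Other called genes of the lists (Igf2r aside, which is in the fixed set), such as Serpinb6a, were named after their values were seen, and so were the sex-linked genes.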

Additional observations from a re-analysis of the deposited data

How the results depend on the processing

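Over 14 alternatives, Ctso in osteosarcoma against NG2 cells was called lower in all 14 (log2 fold change -2.45 to -2.14). In that comparison the count of cathepsins higher was 1 and went to 0 in the model of the 2 compared groups only, and to between 0 and 2 leaving out 1 library. The count of cathepsins lower was 2 and went to 4 by DESeq2, to 1 in the model of the 2 compared groups and to 1 with the replicate block, and to between 1 and 2 leaving out 1 library. In soft tissue sarcoma against NG2 cells the count higher was 1 and went to 0 with the replicate block and to between 0 and 1 leaving out 1 library. Between the tumours the count higher was 0 and went to 3 by DESeq2. The sources used here do not say whether replicate numbers pair the samples. Same-numbered libraries deviated together with r of 0.0419, 0.000254 and -0.0837 over genes. With 2 libraries a group, these values cannot settle whether such libraries share an animal or batch, so the block is an alternative only. Signs turned only for small, uncalled changes: Ctsb in osteosarcoma against NG2 cells without osteosarcoma replicate 2 (-0.15, up to 1.12 leaving out another library); in soft tissue sarcoma against NG2 cells, Ctss by RLE scaling (-0.00870), by DESeq2 (-0.00445), without NG2 cells replicate 1 (-0.30) and without soft tissue sarcoma replicate 1 (-0.20, to 0.49), and Ctsc without NG2 cells replicate 2 (-0.06) and without soft tissue sarcoma replicate 1 (-0.22, to 0.43); and between the tumours, Ctsf without osteosarcoma replicate 1 (-0.29) and without soft tissue sarcoma replicate 1 (-0.12, to 0.58), and Ctsh without soft tissue sarcoma replicate 1 (-0.20, to 0.93). The cause was not tested.

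Counts of all genes called moved more. Osteosarcoma against NG2 cells had 4086 (DESeq2 6966, the compared groups only 2083, replicate block 2660, 1278 to 3429 leaving out 1 library). Soft tissue sarcoma against NG2 cells had 3671 (DESeq2 6506, replicate block 2209, 0 to 4694 leaving out 1 library, with 0 without either soft tissue sarcoma replicate, where 4510 and 4286 had an unadjusted p under 0.05). The tumour comparison had 27 (no filter 409, DESeq2 1925, limma-voom 131, the compared groups only 0, with 3073 at an unadjusted p under 0.05, replicate block 8, 0 to 315 leaving out 1 library, with 0 without any 1 of the sorted or soft tissue sarcoma libraries, where between 1558 and 3106 had an unadjusted p under 0.05). A group left with 1 library was assumed to vary like the others. Each cathepsin had at least 659 counts in every library.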

Other observations

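Other cell types of the lists gave these values. Of 10 osteoblast genes, 10 rose in osteosarcoma against the NG2 sorted cells (median log2 fold change 8.60), and 4 rose and 1 fell in soft tissue sarcoma. Alpl, the bone alkaline phosphatase, fell in soft tissue sarcoma against osteosarcoma, from a mean of 755 to 1.95 CPM (adjusted p 0.043 by edgeR). Of 12 osteoclast genes, 6 rose in osteosarcoma and 1, Ctsk, in soft tissue sarcoma. Of 8 T cell genes 7 fell in each tumour type, of 8 dendritic cell genes 4 and 5 fell, and of 10 granulocyte genes 7 and 3 fell, in osteosarcoma and soft tissue sarcoma in that order.

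Of 8 endothelial genes 4 fell in each tumour type. Of 12 pericyte and mural cell genes, 3 rose and 2 fell in osteosarcoma and 2 fell in soft tissue sarcoma. Rgs5, a pericyte gene, went from 772 and 1289.6 CPM in the sorted cells to 17.4 and 79.9 CPM in the osteosarcomas (adjusted p 0.020). Of 11 fibroblast genes, 4 and 3 rose, and of 10 skeletal muscle genes 1 fell in each tumour type.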
